A study of Mus musculus with 1111 samples.

Results

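The genes described here are 10 transcripts of the AP-1 and immediate early programme: the Fos family members Fos, Fosb and Fosl2, the Jun family members Jun, Junb and Jund, and Atf3, Egr1, Ier2 and Dusp1. They were chosen by name from the 35583 genes of the deposited count tables, not by any measured value. The cells were single microglia, the resident macrophages of the brain, isolated from 3-month-old mice and sequenced with Smart-seq2, which makes 1 full-length cDNA library per sorted cell. Plasma proteins coupled to the dye NHS-Atto647N had been injected 20 hours earlier, so all groups came from injected mice, and the cells were sorted by how much dye they held into plasma none, plasma low and plasma high. No label gave a strain, genotype, sex or animal, so the cells of a group were treated as a single sample and no test between groups was made. The well names carry a TH number from 1 to 3, and each TH number is a set of wells with its own count table that holds all 3 groups. Errors below are the SD over these 3 TH numbers (n = 3) and say nothing of variation between animals.

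AP-1 is a dimer of basic leucine zipper proteins. Jun proteins can pair with each other, with Fos proteins or with ATF proteins such as ATF3, whereas Fos proteins need a Jun partner to bind DNA. Immediate early genes are switched on within minutes of a stimulus without new protein synthesis, mostly through MAP kinases acting on SRF with its Elk partners, CREB and MEF2, and their messengers decay quickly. Egr1 encodes a zinc finger transcription factor, Ier2 a small nuclear protein, and Dusp1 a phosphatase that switches MAP kinases off. In microglia these transcripts are followed because they answer to stimulation and to handling of the tissue.

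After cells with fewer than 50000 reads or 500 genes were left out, 987 cells remained, of which 35.1% were in the none, 35.6% in the low and 29.4% in the high group, with 80757827, 98868490 and 102428398 reads in genes. Median reads per cell were 207429, 229931 and 267143, and the median mitochondrial share was 0.603%, 0.794% and 0.970%, so both measures followed the order of the dye groups. The groups also sat in different plate columns (1 to 8, 9 to 16 and 17 to 23), so dye group and plate column cannot be told apart. All 8 microglial markers were present in every group, with a summed level, in CPM (reads of a gene scaled to a fixed total of reads in genes), of 48428 to 51756 in the none group, 45387 to 54200 in the low group and 46157 to 54371 in the high group. The 4 neutrophil and 5 lymphocyte markers had no read in any group, and of the 6 markers of border-associated macrophages Cd163, Lyve1, F13a1 and Ms4a7 were at 0 and the whole list summed to at most 22.2 CPM, in TH 3 of plasma low. The 5 oligodendrocyte markers summed to 67.5, 58.7 and 21.2 CPM in TH 1, 2 and 3 of plasma none, 59.7, 20.3 and 57.8 in the low group and 81.8, 83.4 and 56.1 in the high group, higher in each TH number of plasma high than of plasma none, with Mog and Cldn11 at 0. The 4 neuronal markers reached 55.4 CPM in TH 2 of plasma high and at most 4.88 CPM in the other sums. The sums of 4 monocyte, 4 endothelial and 5 astrocyte markers were at most 8.42, 26.1 and 27.8 CPM.

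Promoter sequences are shown for Jun, whose level differed between dye groups, for Junb, the highest of the 10 genes, and for Fos and Fosb, which were nearly unread in the same cells. Each is the 150 bases before the RefSeq start site in GRCm38.p6, 5′ to 3′ on the strand of the gene. The windows are chr4:95052223-95052372 (minus strand) for Jun, chr8:84978749-84978898 (minus strand) for Junb, chr12:85473740-85473889 (plus strand) for Fos and chr7:19310046-19310195 (minus strand) for Fosb. Capitals mark matches to TGACATCA (a Jun-type AP-1 site) and the MEF2 site in Jun, to TGACG, the core of the cyclic AMP response element (CRE), in the other 3 genes, and to TATAAA in Fos.
Jun: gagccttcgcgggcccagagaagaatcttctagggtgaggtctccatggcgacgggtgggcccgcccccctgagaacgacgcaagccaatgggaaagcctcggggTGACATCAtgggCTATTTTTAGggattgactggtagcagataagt
Junb: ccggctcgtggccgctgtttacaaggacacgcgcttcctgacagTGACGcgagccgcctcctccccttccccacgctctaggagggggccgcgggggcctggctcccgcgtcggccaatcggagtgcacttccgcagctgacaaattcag
Fos: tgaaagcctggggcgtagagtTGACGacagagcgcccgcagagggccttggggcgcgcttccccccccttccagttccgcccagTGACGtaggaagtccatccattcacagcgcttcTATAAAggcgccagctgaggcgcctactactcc
Fosb: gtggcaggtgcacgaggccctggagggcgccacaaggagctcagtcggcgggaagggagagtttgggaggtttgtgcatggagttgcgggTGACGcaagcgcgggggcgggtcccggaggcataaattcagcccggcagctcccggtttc

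Of the 10 genes, 8 had an entry in the RefSeq promoter table (all except Egr1 and Ier2). Matches were counted on both strands in the 250 bases before the start site, over 32851 promoters. TGACATCA was found in Jun alone of the 8, at bases −45 to −38, and in 2.93% of all promoters. The MEF2 site was found in Jun, at −33 to −24, and in Atf3, at −22 to −13, and in 2.92% of all promoters. The CRE core TGACG was found in 5 of the 8 (Atf3, Dusp1, Fos, Fosb and Junb) and in 17.8% of all promoters, while the full CRE, TGACGTCA, which contains the core, was found in Dusp1 alone and in 1.55% of all promoters. TATAAA was found in Fos alone of the 8 and in 12.4% of all promoters. No match to the AP-1 site TGANTCA (6.75% of all promoters) or to the CArG box of SRF (1.47%) was found in these 8 windows. A match is a description of letters in this window and not of binding.

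The 3 Jun family transcripts carried most of the signal. Junb was read in 451 of 987 cells (45.7%), Jund in 30.6% and Jun in 260 cells (26.3%). The Fos family was almost unread: Fosl2 was found in 21 cells, Fos in 1 cell and Fosb in none of 987. By the rule of 3 counts over the number of cells, a count of 0 allows a share of cells with a Fosb read of up to 0.304%, for counting error only. Ier2 was read in 55 cells, Atf3 in 41, Dusp1 in 16 and Egr1 in 2.

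Divided by exon length, the mean level over the 9 sums (3 groups in 3 TH numbers) was 100.1 ± 18.4 CPM per kb for Junb, 32.2 ± 12.3 for Jund, 28.9 ± 7.28 for Jun, 13.1 ± 6.497 for Ier2 and 7.30 ± 5.50 for Atf3 (SD, n = 9). Dusp1 (1.32), Egr1 (0.305), Fosl2 (0.233), Fos (0.0611) and Fosb (0) followed. Junb stood clear of the next gene, its lowest sum of 81.1 CPM per kb lying above the highest of Jund, 48.6. Jund and Jun did not differ beyond their spread, since Jund ran from 13.02 to 48.6 and Jun from 18.5 to 37.6. Ier2 (1.61 to 21.6) overlapped Jun, and Atf3 (0.0575 to 13.2) overlapped Ier2.

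Summed per length, the Jun family reached 174.04 ± 36.6 CPM per kb in the none group, 156.1 ± 7.198 in the low group and 153.7 ± 26.5 in the high group (SD, n = 3). The Fos family reached 0.689 ± 0.248, 0.0403 ± 0.0415 and 0.151 ± 0.169 CPM per kb. The excess of Jun over Fos transcripts thus held in each dye group and each TH number. Junb alone made up 56.02 ± 0.601% of the length-scaled signal of the 10 genes in the none group, 54.3 ± 6.45% in the low group and 53.1 ± 4.74% in the high group. The share of Jun was 16.8 ± 3.31%, 19.4 ± 5.11% and 11.7 ± 0.662%, and that of Jund was 14.6 ± 4.71%, 15.98 ± 7.12% and 21.9 ± 6.71%.

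**Figure D1:**
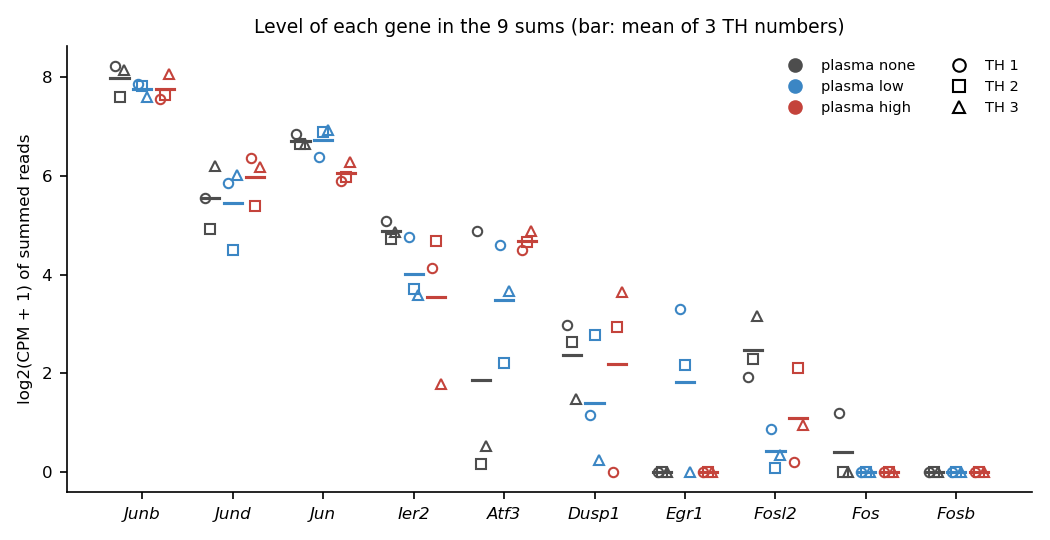
Level of each of the 10 genes as log2(CPM + 1), not divided by length, in the 9 sums, with dye groups by colour, TH numbers by symbol and bars for the mean over 3 TH numbers. The Jun points of plasma high lie below those of both other groups, and Atf3 in the none group spans 0.124 to 28.4 CPM.

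Jun, the founding subunit of AP-1, was the only gene called among the 3 that passed the filter described below. It was lower in plasma high cells than in both other groups. In CPM, which compare a gene with itself across groups, Jun stood at 114.2, 98.6 and 99.1 in TH 1, 2 and 3 of plasma none (103.9 ± 8.85). It stood at 82.7, 116.9 and 120.1 in the low group (106.6 ± 20.7) and at 58.9, 61.7 and 77.1 in the high group (65.9 ± 9.81). The highest plasma high sum lay below the lowest sum of each other group, so plasma high did not overlap with either, while plasma none and plasma low overlapped.

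Ratios between groups were taken within each TH number as log2(CPM + 1) differences and averaged. A gene was called when its mean log2 ratio was at least 0.58 in size (1.5-fold) with the same sign in 3 of 3 TH numbers, at a mean of at least 20 CPM and with reads in 10% or more of the cells of either group. Only Jun, Junb and Jund of the 10 genes passed the filter on level and share of cells. Fosl2 and Ier2 did not pass it, though their ratios met the size and sign parts of the rule. Their means were −1.38 and −1.35 in plasma high against plasma none, and −2.03 and −0.87 in plasma low against plasma none. The log2 ratio of Jun in plasma high against plasma none was −0.94, −0.67 and −0.36, with a mean of −0.66 ± 0.29, or 0.635 times the level. Jun was called lower, as were 6.98% of the 5534 genes tested, and 5.42% of these genes were lower without overlap. In plasma high against plasma low the ratio of Jun was −0.48, −0.91 and −0.63 (mean −0.67 ± 0.22), also a call, in a comparison that called 5.66% of 5709 genes lower and had 4.47% lower without overlap. In plasma low against plasma none Jun had a ratio of 0.02 ± 0.42 and no call.

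The call of Jun against plasma none ended without TH 1, where the ratio was −0.53, and that against plasma low ended without TH 2, where it was −0.56. Both comparisons use the same plasma high cells, so they are not independent of each other. Depth, mitochondrial share and plate column moved with the dye groups, and oligodendrocyte markers had their highest mean in plasma high. Their part in the ratio of Jun was not tested.

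Jun, a gene with no intron (chr4:95049034-95052222, minus strand, mm10), spans 3189 exon bases, of which 7.28% are shared with Junos on the opposite strand. Whether the counting used strand was not stated, so reads in the shared bases cannot be assigned to 1 of the 2 genes. Junos stood at 10.9 ± 1.88 CPM in the none group, 9.82 ± 2.48 in the low group and 6.54 ± 1.83 in the high group. Of the cells with a Junos read, 97.7% also had a Jun read.

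Over all cells of a group, both the share of cells with Jun and the median level within them were lowest in the high group. With each cell thinned to 50000 reads, Jun was read in 23.9 ± 3.89% of plasma none, 29.3 ± 3.602% of plasma low cells and 21.03 ± 0.752% of those of plasma high. Without thinning, the shares over all cells of a group were 25.1%, 29.6% and 23.8%. The share of cells with at least 100 CPM of Jun was 19.6 ± 2.47%, 24.2 ± 1.94% and 16.5 ± 2.42%. Plasma none and plasma high differed by about the spread between TH numbers in these shares, whereas in each TH number plasma low held more Jun cells at 100 CPM than plasma high. Among cells with a Jun read, the median was 416.9 CPM in the none group, 289.8 in the low group and 264.5 in the high group. These medians did not keep their order within the TH numbers: in TH 1 they were 483.3, 197.97 and 376.4 CPM, in TH 2 319.9, 291.1 and 240.8, and in TH 3 416.9, 373.5 and 202.4.

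Junb, a Jun family member that can restrain Jun (chr8:84974484-84978718, minus strand), did not differ between groups by this rule. It stood at 298.6, 191.7 and 282.2 CPM in the none group, 232.04, 225.8 and 193.3 in the low group and 186.7, 198.7 and 264.9 in the high group. The sums of the 3 groups overlapped, and the log2 ratio was −0.24 ± 0.38 in plasma high against plasma none, −0.22 ± 0.41 in plasma low against plasma none and −0.01 ± 0.41 in plasma high against plasma low. After thinning, Junb was read in 42.4 ± 5.36%, 47.3 ± 8.25% and 44.7 ± 3.398% of plasma none, low and high cells. Of its 2301 exon bases, 7.52% are shared with Prdx2 on the opposite strand, which stood at 62.7 ± 17.7, 52.9 ± 22.996 and 93.4 ± 34.2 CPM, and 100 of the 180 cells with a Prdx2 read also had a Junb read.

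Jund, a Jun family member expressed widely and steadily across tissues (chr8:70698949-70700616, plus strand), varied more by TH number than by group. Its levels were 46.03, 29.4 and 72.3 CPM in the none group, 56.6, 21.7 and 63.4 in the low group and 81.1, 41.02 and 71.9 in the high group. TH 2 was the lowest in each group, and the range of the mean log2 levels of Jund was 1.19 across TH numbers against 0.53 across groups. A larger range across TH numbers was also seen in 53.4% of all 5761 genes that passed the filter, with median ranges of 0.513 and 0.480. Jund was higher in 3 of 3 TH numbers in plasma high against plasma low, with log2 ratios of 0.51, 0.89 and 0.18 (mean 0.53 ± 0.35), below the size of a call. The same sign upward was met by 14.1% of the genes tested there. Against plasma none the ratio was 0.42 ± 0.41 for plasma high and −0.10 ± 0.36 for plasma low. With TH 3 left out, the ratio of Jund was 0.62 in plasma high against plasma none and 0.69 against plasma low, both of which would be calls. Without TH 3 the rule is easier to meet. It called 1565 of 5511 genes against plasma none and 1259 of 5674 against plasma low, in place of 903 of 5534 and 636 of 5709. Against plasma none the ratio of Jund was 0.21 without TH 1. With the mean of each cell's CPM in place of summed reads it was 0.08 against plasma none and 0.17 against plasma low. Jund shares 877 of its 1668 exon bases with Gm11175 on the opposite strand, and all 260 cells with a Gm11175 read also had a Jund read.

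**Figure D2:**
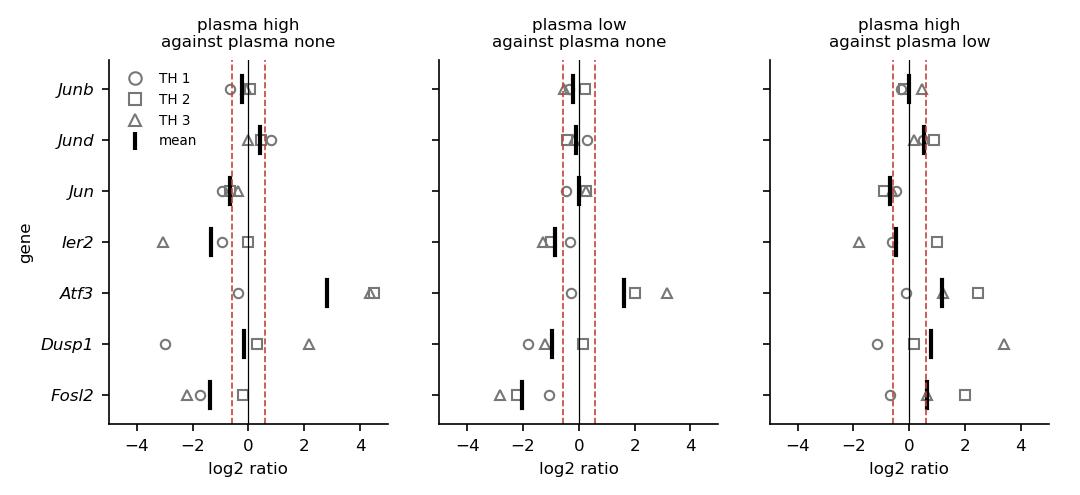
Log2 ratio of 7 of the 10 genes in the 3 comparisons, with 1 symbol per TH number, a black bar for the mean and dashed lines at 1.5-fold; Egr1, Fos and Fosb, read in 2, 1 and 0 cells, are left out. Jun lies left of 0 for each TH number in both comparisons of plasma high, and the genes from Ier2 down spread more widely than the Jun family.

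Atf3, a stress-induced partner of Jun (chr1:191170296-191218039, minus strand), was steady in the high group and uneven elsewhere. It stood at 21.5, 24.2 and 28.4 CPM in the high group, against 28.4, 0.124 and 0.435 in the none group and 23.2, 3.59 and 11.7 in the low group. In TH 1 the 3 groups lay close together, and in TH 2 and TH 3 plasma none was near 0. The log2 ratio of plasma high against plasma none was therefore −0.39 in TH 1, 4.49 in TH 2 and 4.35 in TH 3, and the sums overlapped. These levels rest on 9, 15 and 17 cells of the none, low and high groups, and 1 cell gave 38.7%, 21.6% and 18.4% of the Atf3 reads of its group. The thinned shares of cells were 2.29 ± 2.64%, 4.26 ± 3.04% and 4.82 ± 0.468%.

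Ier2 had its highest levels in plasma none. It stood at 32.9, 25.3 and 27.97 CPM in the none group, 26.2, 12.1 and 11.02 in the low group and 16.6, 24.8 and 2.46 in the high group. The highest plasma high sum, 24.8 CPM, lay just under the lowest plasma none sum, 25.3, so these groups did not overlap. Plasma low overlapped both. Of the genes tested, 5.42% were lower without overlap in plasma high against plasma none. The mean log2 ratio was −1.35 ± 1.56 in plasma high against plasma none and −0.87 ± 0.49 in plasma low against plasma none. Each was negative in 3 of 3 TH numbers, as held for 13.8% and 11.8% of the genes tested, which do not include Ier2. In plasma high against plasma none the ratio was −0.03 in TH 2. Its mean was −1.57 without TH 1, −2.01 without TH 2 and −0.51 without TH 3. Ier2 was read in 20, 21 and 14 cells of the 3 groups, too small a share of cells to enter the call, and its thinned shares of 5.78 ± 0.973%, 5.97 ± 3.86% and 4.77 ± 3.27% overlapped.

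Dusp1, the MAP kinase phosphatase, stood at 6.92, 5.17 and 1.78 CPM in the none group, 1.24, 5.88 and 0.191 in the low group and 0, 6.69 and 11.46 in the high group, from 5, 7 and 4 cells. Its groups overlapped and no order was seen. Fosl2, the Fos family member also called Fra-2, stood at 2.82, 3.90 and 7.98 CPM in the none group. Each of these lay above the plasma low sums of 0.839, 0.0634 and 0.268. Such a lack of overlap downward was seen in 4.21% of the genes tested, which all passed the filter on level and share of cells. Fosl2 did not pass that filter, so the share is no like background for it. In plasma high it stood at 0.149, 3.299 and 0.948. Equal numbers of plasma none and plasma low cells, 8 each, had a Fosl2 read, and the median among them was 140 CPM in the none group and 13.8 in the low group. A single cell gave 37.8% of the Fosl2 reads of plasma none.

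The rarest transcripts came from single cells. The only Fos reads, 28 of them, were in 1 cell of plasma none in TH 1, at 432 CPM, and the same cell held Jun at 817 CPM and Atf3 at 987 CPM. Egr1 was read in 2 plasma low cells. The first, in TH 1, held Egr1 at 642 CPM beside Atf3 at 663, Jun at 162.8, Ier2 at 63.9 and Junb at 55.2. It was the only cell with 5 of the 10 genes. The second, in TH 2, held Egr1 at 546 CPM and none of the other 9. Egr1 had no read in the none group (exact 95% interval 0% to 1.06% of cells with a read) or in the high group (0% to 1.26%).

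**Figure D3:**
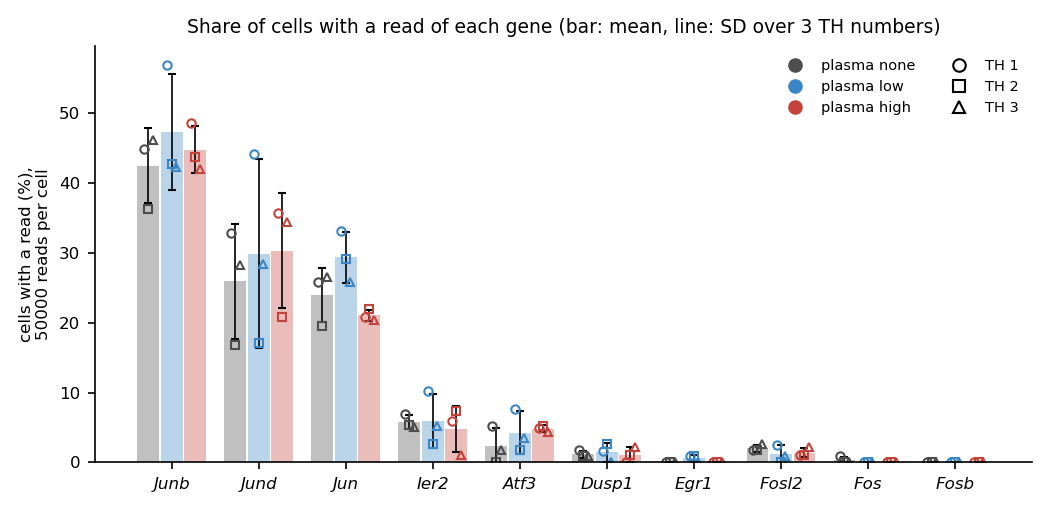
Share of cells with a read of each gene after thinning to 50000 reads per cell, as bars for the mean and lines for the SD over 3 TH numbers, with 1 symbol per TH number. Junb, Jund and Jun lie between 21.03% and 47.3% on average, and no other gene has a mean above 5.97%.

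Few cells held several of these transcripts at once. After thinning, the mean number of the 10 genes read per cell was 1.04 ± 0.206 in the none group, 1.20 ± 0.324 in the low group and 1.08 ± 0.0802 in the high group, so the groups differed by less than the spread between TH numbers. No read of any of the 10 was found in 30.3% of plasma none cells (95% exact interval 25.5% to 35.5%), 28.5% of plasma low cells (23.8% to 33.5%) and 30.3% of plasma high cells (25.1% to 35.99%). The intervals cover counting error only. At least 5 of the 10 were read in 0, 1 and 0 cells. The largest departure was plasma low in TH 1, where 14.4% of cells lacked all 10, against 36.8% and 34.5% in TH 2 and TH 3. The summed level of the 10 genes had a median of 318.03 CPM per cell in the none group, 313.4 in the low group and 242.7 in the high group, with upper quartiles of 698, 570.0 and 501 CPM. This order did not hold in each TH number: in TH 1 the medians were 446.4, 375.2 and 300.7 CPM, in TH 2 193.07, 252.9 and 193.6, and in TH 3 349.2, 289.8 and 246.7.

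**Figure D4:**
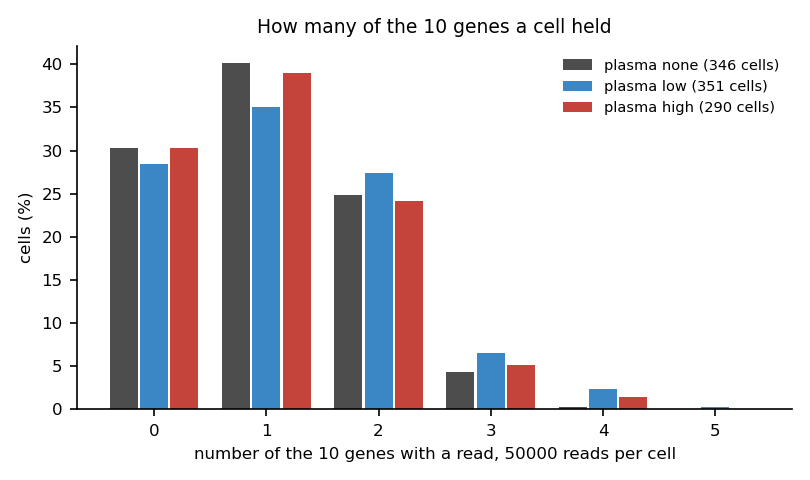
Share of cells by the number of the 10 genes with a read, after thinning to 50000 reads per cell, with bars for each dye group. The 3 groups have similar profiles, with 1 gene per cell the most frequent count and 1 cell of plasma low at 5.

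Little covariation of the 10 genes was measured from cell to cell. Of the 45 pairs among the 10 genes, 35 had a Spearman correlation of log2(CPM + 1) in at least 1 set of cells. The median over these pairs was 0.0004, and no pair was above 0 in all 9 sets of cells. Jun and Jund had a mean correlation of 0.07 over the 9 sets (lowest −0.05, highest 0.16) and shared 95 cells. Jund and Atf3 had 0.10 (lowest −0.17, highest 0.31) with 22 cells in common. All points share library depth, and in counts as sparse as these a weak correlation is no finding. Among 2811 other genes read in at least 20% of cells, the 8 most like the mean of the 10 genes across cells were Kcnk13 (mean correlation 0.153), Gnb2, Cap1, Bzw1, Sgpl1, Rmi1, St3gal6 and Vav1 (0.123). The mean of the 10 genes had a mean correlation of 0.124 with depth itself, and after thinning these 8 genes stood between 0.0804 (Rmi1) and 0.1498 (Kcnk13).

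Plate column was also compared with the 10 genes within a dye group. The Spearman correlation of their summed level in a cell with column number was 0.12, 0.01 and 0.20 in TH 1, 2 and 3 of plasma none, 0.01, −0.01 and 0.15 in the low group and −0.10, −0.03 and −0.06 in the high group. With the number of the 10 genes read in place of their level it was 0.07, 0.07 and 0.30 in plasma none cells, 0.07, 0.02 and 0.10 for plasma low and −0.05, 0.02 and −0.01 for plasma high. TH 3 of plasma none was the highest by both measures. These values describe cells of 1 set of wells and carry no test.

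For the list as a whole, 6 of the 10 genes had a mean of at least 5 CPM in plasma high against plasma none and their median log2 ratio was −0.20 ± 0.52, beside 0.05 over all genes tested. The medians were −0.10 ± 0.29 over 5 genes in plasma low against plasma none and −0.01 ± 0.60 over 5 genes in plasma high against plasma low, beside 0.05 and 0.01 over all genes. Each median lay within its spread over TH numbers. That of plasma high against plasma none turned to 0.08 without TH 1 and to 0.07 without the outermost wells. That of plasma high against plasma low was positive, 0.07 to 0.33, with any 1 TH number left out. The 1.5-fold rule called 1, 0 and 1 of the 3 genes tested, beside 16.3%, 10.2% and 11.1% of all genes in either direction. Upward calls were 9.34%, 6.03% and 5.48% of all genes tested, and downward calls in plasma low against plasma none 4.19%.

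Genes around AP-1 were taken from 7 lists. Among 15 other AP-1 and basic leucine zipper partners, 7 were tested and none was called in plasma high against plasma none. Atf2, a partner of Jun, was called higher in plasma low against plasma none (82.5 ± 28.6 against 46.7 ± 33.6 CPM). It was called lower in the high group (48.4 ± 26.3) against plasma low. In plasma low against plasma none its log2 ratios were 0.42, 2.21 and 0.39 in TH 1, 2 and 3, past 1.5-fold in TH 2 alone. Maf, a bZIP factor of macrophages, had the highest CPM of this list (not divided by length, here and for the other lists), at 1159 ± 166.55, 1099 ± 176.6 and 960.3 ± 202.7 CPM by group, and Fosl1 had no read in any group. Of 16 other immediate early transcripts, 5 were tested and none was called in plasma high against plasma none. Myc was called lower in the low group (61.5 ± 15.3 CPM) against plasma none (105.4 ± 26.1). Btg2, an antiproliferative immediate early gene with the highest CPM of its list, stood at 649.6 ± 134.025, 571.2 ± 51.6 and 493.01 ± 178.4 CPM. Like Fos and Egr1, the classical activity markers Egr2, Egr3, Nr4a1, Nr4a2, Nr4a3 and Arc were at or near 0, with group means of at most 2.14 CPM.

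Of 18 feedback inhibitors, 8 were tested. Spred1, an inhibitor of the Ras to ERK pathway, was called higher in the high group (73.4 ± 40.7 CPM) and in the low group (56.5 ± 18.6) against plasma none (33.5 ± 18.1). In plasma low against plasma none its log2 ratios were 0.11, 1.70 and 0.84 in TH 1, 2 and 3. The mean of TH 1 and TH 3 lay below the size of a call. Zfp36l1, which encodes a protein that speeds decay of AU-rich messengers, was called higher in the high group (171.1 ± 22.6 CPM) and in the low group (173.6 ± 19.7) against the same plasma none cells (91.6 ± 14.1). These calls share the plasma none cells and are not independent. Nfkbia, the NF-kB inhibitor, was called lower in the low group (129.3 ± 30.4 CPM) against plasma none (226.3 ± 66.4). Its log2 ratios were −0.54, −1.46 and −0.34 in TH 1, 2 and 3, past 1.5-fold in TH 2 alone. Dusp6, the ERK phosphatase, had the highest CPM of this list, at 645 ± 77.8, 744 ± 129.07 and 633 ± 74.2 CPM, and was not called.

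Of 14 upstream kinases, 10 were tested in plasma high against plasma none. Mapk3, which encodes ERK1, was called higher in the high group (74.7 ± 27.5 CPM) against both plasma none (40.6 ± 2.77) and plasma low (45.9 ± 4.35). Mapkapk2, a kinase under p38, was called higher in the low group (54.4 ± 9.34 CPM) against plasma none (27.98 ± 15.4). It passed the filter on share of cells only through plasma low, the group where it was high. Its reads were in 16.5% of plasma low cells, against 8.09% of plasma none and 8.28% of plasma high cells. Rps6ka1, which encodes the ERK-activated kinase RSK1, had the highest CPM, at 409 ± 68.2, 506 ± 61.8 and 426 ± 47.96 CPM. Of 10 upstream transcription factors, 8 were tested in plasma high against plasma none. Creb1 was called lower in the high group (29.4 ± 5.08 CPM) against plasma none (55.1 ± 25.4). Its log2 ratios were −0.52, −0.53 and −1.35 in TH 1, 2 and 3, past 1.5-fold in TH 3 alone. Mef2c, with the highest CPM, stood at 863 ± 191.5, 850.2 ± 167.6 and 843 ± 89.9 CPM.

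Of 11 heat shock genes, 7 were tested and none was called in any of the 3 comparisons. Hsp90ab1 stood at 368.05 ± 49.9, 449.8 ± 114.97 and 427 ± 5.65 CPM, while the stress-inducible Hspa1a and Hspa1b had group means of at most 0.149 CPM. Of 13 cytokine and chemokine genes of activated microglia, 3 were tested. Cd83, a surface protein of activated myeloid cells, was called higher in plasma high against plasma none, at 486.5, 491.3 and 446.2 CPM against 341.8, 280.2 and 250.9, so the groups did not overlap, as was seen upward for 8.51% of all genes tested. It stood at 385.6, 364.2 and 272.9 CPM in the low group. Ccl7 and Cxcl2 had no read.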

How the data were processed

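Each sample was 1 cell. The deposited tables hold raw counts of reads per gene and cell, 1 table per TH number, with reads assigned per the file headers from alignments that carry a top hits note in TH 2 and TH 3 but not in TH 1. In 1 column of TH 3 the authors' values were taken for estimated, expected counts, because 2 values were not whole, and these were rounded. The submitters' processing notes name bcl2fastq, Trim Galore, STAR 2.5.3a, Seurat and the build mm10. How reads were counted, and whether by strand, is not given in the sources used here. Of 1111 labelled cells, 1045 were matched to a column by well and TH number, and 66 were not analysed here.

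Cells with at least 50000 reads and 500 genes were summed by group and TH number and scaled to CPM with TMM factors (edgeR 4.0.16, R 4.3.3), with a pseudocount of 1 CPM. Cells are not replicates, so no p-value is given. Alternatives were library-size scaling, DESeq2 1.42.0 size factors, a pseudocount of 5 CPM, no filter on low genes, other cell filters, the mean of each cell's CPM, each gene's top cell left out, outermost wells left out, and each TH number left out. Exon lengths came from GENCODE M21. Thinning drew 50000 reads per cell with a fixed seed. The calling script was tested on simulated data. Cells were sorted singly, so no doublet caller was run.

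All 10 members are named. Of each list, genes past the 1.5-fold rule and the gene with the highest mean CPM are named, and other genes given at or near 0 were chosen after their values were seen. Il1a and Icam1 are named as the rest of the genes tested in their list. The members and lists were chosen with earlier results of these data known.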

Additional observations from a re-analysis of the deposited data

How the results depend on the processing

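Jun was called lower in plasma high against plasma none and against plasma low under each of the 9 alternatives of scaling, filter, pseudocount and cells, and lost the call only when a TH number was left out. Without a filter on low genes, the count of genes called rose from 1 to 3 in plasma high against plasma none (Fosl2, Jun and Ier2, all lower) and from 0 to 2 in plasma low against plasma none (Fosl2 and Ier2, both lower). Leaving out each TH number in turn gave 0 to 2 calls in plasma high against plasma none (0 without TH 1, 2 without TH 3) and 0 to 2 in plasma high against plasma low (0 without TH 2, 2 without TH 3). In both, the calls without TH 3 were Jun lower and Jund higher. The cause was not tested. With the number of genes detected in place of their summed level, the mean correlation with plate column in plasma high was −0.010 in place of −0.062, and in plasma none 0.146 in place of 0.110. The median correlation between pairs of genes was −0.0113 after thinning, −0.0112 as Pearson's correlation and −0.0104 to 0.0098 with each TH number left out, in place of 0.0004. Without each gene's highest cell, 29.8% of the calls over all genes in plasma high against plasma low were upward, in place of 49.2%. No paired analysis was possible because the results come from no test, so there was no fit to which a replicate block could be added. The ratios themselves are differences within TH numbers. Shares of cells with a read of Fos, Fosb and Egr1 were the same with and without thinning. They rest on 1, 0 and 2 cells, too few to read a difference between groups.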
